A study of Mus musculus with 22 samples.

Results

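Singleton clonotypes are the heavy chain rearrangements of a B cell receptor repertoire that a library holds as a single distinct sequence, here a row with 2 to 121 reads. A clonotype was a junction (the nucleotides from the conserved cysteine to the conserved tryptophan around CDR3) together with its V and J gene. Singletons were the clonotypes with exactly 1 row in the deposited table of their library, and those 1 nt away from a junction of equal length with more rows in the same library were left out. Of 6754 clonotypes in 22 libraries, 5609 had 1 row, 1160 of these were left out as neighbours of a larger clonotype, and 4449 remained. These 4449 singletons, 1651 extravascular and 2798 intravascular, were 65.9% of all clonotypes and 25.9% of the 17178 rows. The members were chosen by their number of rows in these libraries, so their number and share are descriptions.

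Heavy chain junctions form when a D segment is joined to a J segment and a V segment to that product. Terminal deoxynucleotidyl transferase adds N nucleotides at both joints without a template, and P nucleotides are short palindromes left by hairpin opening. Naive B cells carry unmutated V segments and make both Ighm and Ighd from one transcript, while class switch to Igha, Ighe or an Ighg gene and somatic mutation follow activation. B-1a cells, many of which arise before birth when this transferase is low, often use Ighv11-2 or Ighv12-3 with few N nucleotides.

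The mice were WT female C57BL/6 animals 8 to 10 weeks old, whose bladders were inoculated 2 times with uropathogenic Escherichia coli (UPEC, 5 mice) or with PBS (6 mice). Their kidneys were taken at day 56. Live B cells were sorted into an extravascular fraction, which an intravenous CD45 antibody had not labelled (CD45IV-), and an intravascular fraction, which it had (CD45IV+), so that each mouse gave 2 libraries. Libraries held between 244 and 2134 rows and between 936 and 18956 reads, with every row seen in at least 2 reads. The first UPEC extravascular library was the smallest, with 244 rows. Singletons had a median of 3 reads in both compartments, and 48.2% of them had 2 reads, the lowest number in the tables.

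The singletons that follow show what such a junction looks like. They are the singleton with the most reads in each group, the 4 whose rearrangement was found in the most mice, and the one with the most N nucleotides in each compartment, copied from the deposited tables with N nucleotides in capitals.
PBS extravascular, Ighv1-48 Ighd1-1 Ighj3: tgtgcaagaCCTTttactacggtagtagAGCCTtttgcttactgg
PBS intravascular, Ighv3-1 Ighd3-3 Ighj2: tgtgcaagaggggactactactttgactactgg
UPEC extravascular, Ighv1s22 Ighd2-4 Ighj4: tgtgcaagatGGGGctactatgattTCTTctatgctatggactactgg
UPEC intravascular, Ighv1-75 Ighd1-1 Ighj4: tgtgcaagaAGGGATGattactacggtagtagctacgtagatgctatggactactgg
Shared, Ighv11-2 Ighd2-5 Ighj1: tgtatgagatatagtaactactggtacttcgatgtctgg
Shared, Ighv11-2 Ighd2-1 Ighj1: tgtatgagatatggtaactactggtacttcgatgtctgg
Shared, Ighv11-2 Ighd1-1 Ighj1: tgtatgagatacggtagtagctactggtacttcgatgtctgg
Shared, Ighv12-3 Ighd2-3 Ighj1: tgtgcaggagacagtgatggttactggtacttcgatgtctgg
Most N, extravascular, Ighv5-12 Ighd2-4 Ighj4: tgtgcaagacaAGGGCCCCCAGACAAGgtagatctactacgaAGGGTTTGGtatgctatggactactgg
Most N, intravascular, Ighv3-6 Ighd3-1 Ighj4: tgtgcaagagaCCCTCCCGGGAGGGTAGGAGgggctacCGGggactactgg

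The singletons with the most reads had 121, 48, 48 and 34 reads in the order shown, and 3 of these 4 carried 7 to 9 N nucleotides. The 4 shared rearrangements had none. The first of them was present in all 11 mice and 21 libraries, with 199 rows in all, and was a singleton in 6 of those libraries. The last 2 junctions had 25 and 23 N nucleotides. All 10 were read as Ighm. The Ighv1-48, Ighv1s22, Ighv1-75 and Ighv5-12 names rest on only 46, 45, 46 and 30 V nucleotides, and for all but Ighv1s22 the annotation gives several V names, so these V genes are not resolved.

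The libraries differed in how many singletons they gave. PBS extravascular libraries held 69 to 178 singletons with a median of 149.5, and PBS intravascular libraries held 191 to 304 with a median of 255. After UPEC, the extravascular libraries of mice 1 to 5 held 166, 97, 113, 271 and 163 singletons, and the intravascular ones 274, 245, 274, 275 and 224. After PBS, singletons made up a mean of 12.2% ± 5.81 of the rows outside the vessels and 54.1% ± 13.5 inside (SD, n = 6). After UPEC these means were 29.6% ± 23.7 and 56.6% ± 18.9 (SD, n = 5). The high extravascular value after UPEC rests in part on mouse 1, at 68.0% of rows. These shares were not adjusted for the number of rows, which differed between groups. PBS libraries held 750 to 2134 rows (median 1286) outside and 344 to 611 (median 477.5) inside the vessels. UPEC libraries held 244 to 1102 (median 743) outside and 347 to 938 (median 377) inside.

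**Figure D1:**
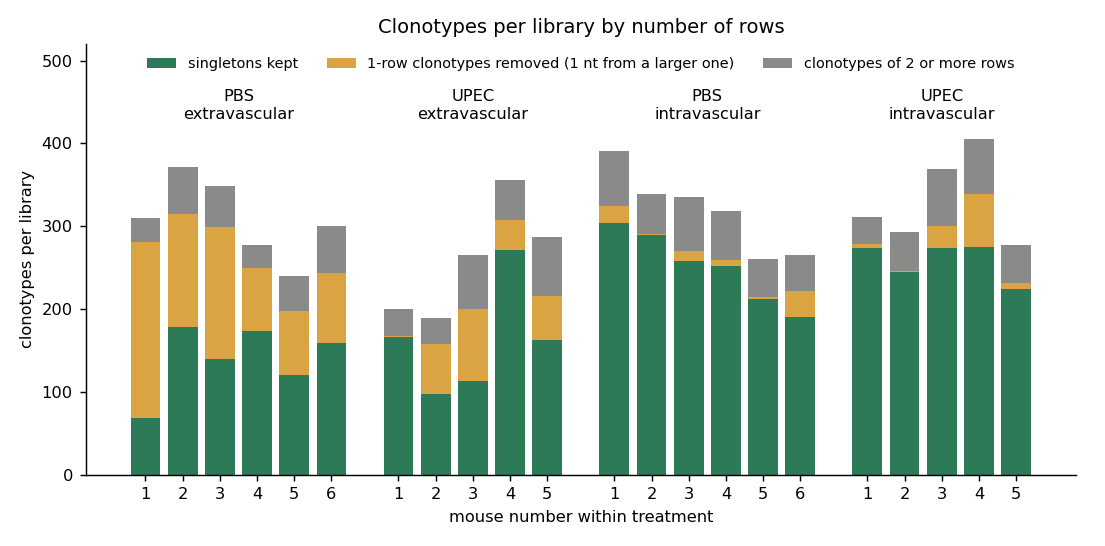
Clonotypes per library (vertical axis, number) for each mouse (horizontal axis, mouse number within treatment), split into singletons kept, 1-row clonotypes removed as 1 nt neighbours of a larger clonotype, and clonotypes of 2 or more rows. Removal took 30.1% to 75.4% of the 1-row clonotypes of PBS extravascular libraries and 0.687% to 14.0% of those of PBS intravascular libraries.

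The removal fell unevenly on compartments and on V segments. It took 983 extravascular and 177 intravascular 1-row clonotypes. Of the 983, 313 (31.8%) used Ighv12-3, 256 (26.0%) Ighv3-8 and 205 (20.9%) Ighv3-1. Of the 177, 65 (36.7%) used Ighv3-8, 51 (28.8%) Ighv3-1 and 25 (14.1%) Ighv12-3. The shares of these segments among singletons therefore depend on the removal, and calls that change when the neighbours are kept are given below for V and D usage.

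Just outside the rule lie the clonotypes of 2 rows, 219 extravascular and 351 intravascular ones after the same removal. Singletons averaged 5.51 N nucleotides in the extravascular and 5.72 in the intravascular compartment, and 2-row clonotypes 5.11 and 4.72. Ighv3 was used by 19.5% of extravascular singletons against 31.1% of 2-row clonotypes, and by 42.4% against 72.6% in the intravascular compartment. A rearrangement seen with both Ighm and Ighd nearly always fills 2 rows, since only 9 of the 17178 rows held 2 isotypes, and is then no singleton. Of the 2-row clonotypes, 58 extravascular and 94 intravascular ones had a single V-D-J sequence, and 44 and 79 of these paired Ighm with Ighd.

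One group of singletons stood apart in the length of its V sequence. Of the 4449, 710 (16.0%) had fewer than 100 V nucleotides before the junction, 669 of them 44 to 48, while the other 3739 had 115 to 282 with a median of 266. The most common short stretches, shown because they carry the V name of these singletons, were found in 213, 168 and 98 of them.
Short V stretch, most common: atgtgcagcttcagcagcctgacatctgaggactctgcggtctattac
Short V stretch, next: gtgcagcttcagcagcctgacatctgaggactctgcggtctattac
Short V stretch, the third: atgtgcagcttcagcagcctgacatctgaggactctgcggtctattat

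None of these stretches was found whole in the 183 germline V genes of GENCODE vM21. The last 30 nt of the first, with which 406 short members end, are in 11 of those genes, all of them Ighv1, so the V gene is not resolved beyond its family. Among the short members 667 were named Ighv1, and they included all 398 singletons named Ighv1s22 and all 181 named Ighv1-48. They differed from the rest in their junctions, with a mean of 7.86 N nucleotides against 5.21 and a CDR3 of 14.3 against 11.6 residues. Only 4 of them (0.563%, Wilson interval 0.219% to 1.44%) were Ighd, against 26.2% (24.9% to 27.7%) of the rest. These and the other intervals over pooled singletons cover counting error only, not the spread between mice. The short members made up 16.1% of extravascular and 15.9% of intravascular singletons, and their share did not differ detectably between compartments (0.19 percentage points, exact signed-rank p = 1). The means ran in opposite directions by treatment, at 19.5% outside and 15.3% inside the vessels in PBS mice and 12.6% and 17.2% in UPEC mice, a change of -8.80 points that did not pass (exact permutation p = 0.136). Whether these are truncated or primer-derived products was not tested. Calls of V and D usage and of junctions that change without them are given below.

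Ighv3, Ighv1 and Ighv5 were the leading V families, with 1509, 1469 and 765 singletons. Their order differed between compartments, with 698 Ighv1, 378 Ighv5 and 322 Ighv3 singletons outside and 1187 Ighv3, 771 Ighv1 and 387 Ighv5 singletons inside the vessels. Extravascular singletons used Ighv3 less than intravascular ones. In PBS mice the Ighv3 share ran from 10.7% to 20.1% with a median of 17.2% in extravascular libraries, and from 25.1% to 55.0% with a median of 40.5% in intravascular ones, so the 2 sets did not overlap. In UPEC mice 1 to 5 it was 7.23%, 14.4%, 25.7%, 34.3% and 23.9% outside the vessels and 59.5%, 57.1%, 38.0%, 23.6% and 42.0% inside, and mouse 4 alone went the other way.

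Over the 11 mice the Ighv3 share was lower by 23.9 percentage points (18.3% ± 7.70 against 42.2% ± 12.3, SD, n = 11), lower in 10 of 11 mice, with an adjusted exact signed-rank p of 0.0472. It was 1 of 3 of the 29 measures (10.3%) that passed the threshold between compartments, 2 of them lower (6.9%) and 1 higher (3.45%) outside the vessels, and 6 had an unadjusted p under the threshold. The call is close to the threshold. It was lost when any mouse other than PBS mouse 6 was left out, with differences from -27.4 to -21.1 and adjusted p values up to 0.0944. With the 1 nt neighbours kept, the difference was -12.7 with an adjusted p of 0.187. It was -28.1 with an adjusted p of 0.0425 without short V stretches.

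The Ighv1 family was the counterpart. Its share averaged 44.7% ± 10.2 outside and 27.7% ± 7.54 inside the vessels (SD, n = 11), 17.0 points higher in 9 of 11 mice, with an adjusted exact signed-rank p of 0.0708 that missed the threshold. Without the short V stretches it was 35.7% against 14.5%, higher in 10 of 11 mice, and passed with an adjusted p of 0.0425. With the 1 nt neighbours kept the difference was 3.93 points (adjusted p = 0.706). The Ighv5 share, 22.2% ± 5.19 against 13.7% ± 6.70 (SD, n = 11), was higher in 9 of 11 mice and did not pass (adjusted p = 0.108), and differed by 2.20 points with the neighbours kept.

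The Ighv11 and Ighv12 families together made up 3.74% ± 3.16 of extravascular and 3.32% ± 2.18 of intravascular singletons (SD, n = 11), a difference of 0.42 points that did not pass (adjusted exact signed-rank p = 1). Of Ighv12-3, 96 singletons remained and of Ighv11-2, 51. For Ighv12-3 the sign of the compartment difference turned with the removal. Its limma log2 fold was -1.20 ± 0.67 (adjusted p = 0.188) among singletons, and 1.71 (adjusted p = 0.0372), higher outside the vessels, with the 1 nt neighbours kept. Ighv11-2 had too few members for that test.

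**Figure D2:**
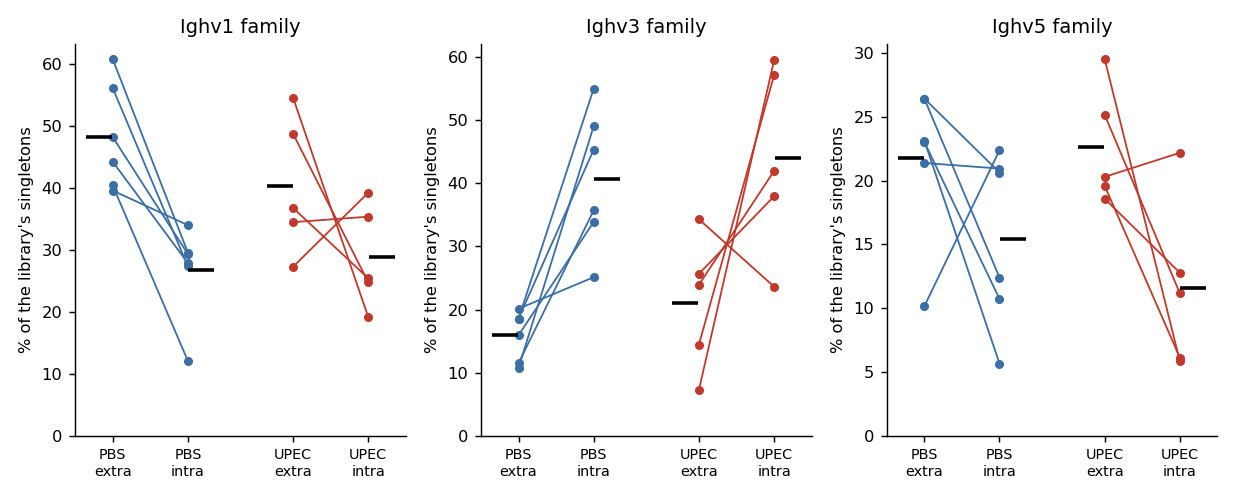
Share of each library's singletons (vertical axis, %) that used the Ighv1, Ighv3 and Ighv5 families, by treatment and compartment (horizontal axis). Points are libraries, lines join the extravascular and intravascular library of a mouse, and black bars are group means, for Ighv3 15.9% outside and 40.7% inside the vessels in PBS mice.

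Single segments were then tested with limma, 19 V and 12 D segments with enough members. Of these 31, 10 passed (32.3%), 5 higher (16.1%) and 5 lower (16.1%) in the extravascular compartment. The higher ones were 4 Ighv1 segments and Ighd1-1, and the lower ones Ighv3-1, Ighv3-8, Ighv15-2, Ighv1-58 and Ighd3-3.

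Ighv1-64 had the largest rise, a log2 fold of 1.88 ± 0.43 (SE, adjusted p = 0.00483), and was higher outside the vessels in 11 of 11 mice. Its share ran from 1.72% to 4.35% with a median of 3.19% in PBS extravascular libraries and from 0% to 2.96% with a median of 0.754% in PBS intravascular ones. In UPEC extravascular libraries its median was 1.77%, and 0.73% in intravascular ones. Ighv1-72 was higher in 11 of 11 mice as well, by 1.56 ± 0.34 on the log2 scale (adjusted p = 0.00483). Ighv1-53 rose by 1.39 ± 0.42 (adjusted p = 0.0214) and Ighv1-55 by 1.48 ± 0.50 (adjusted p = 0.0337), each in 9 of 11 mice. The Ighv1-55 call was kept in 7 of 12 alternative settings and in 7 of 11 fits with 1 mouse left out (adjusted p up to 0.0813). The Ighv1-55 share was 11.4% and 11.3% in the extravascular libraries of UPEC mice 1 and 2, and 0.885% to 1.48% in those of the other UPEC mice.

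Ighv3-1 fell by 2.08 ± 0.45 on the log2 scale (adjusted p = 0.00483), lower in 10 of 11 mice. It was used by 1.12% to 4.40% of the singletons of PBS extravascular libraries and by 5.24% to 17.3% of those of PBS intravascular ones, with a median of 9.20%, so these libraries did not overlap. After UPEC its median was 1.84% outside and 12.9% inside the vessels, with overlap. Ighv3-8 fell by 1.71 ± 0.46 (adjusted p = 0.0117), from a mean of 11.2% to 3.59%, but had a log2 fold of -0.16 (adjusted p = 0.729) with the 1 nt neighbours kept. Ighv15-2 fell by 2.03 ± 0.48 (adjusted p = 0.00483), from 3.36% to 0.824%. Ighv15-2 had no member in 3 of 6 PBS extravascular libraries. Ighv1-58 fell by 1.08 ± 0.39 (adjusted p = 0.0448), in the direction opposite to the other Ighv1 segments called. It was not called without short V stretches (-0.91, adjusted p = 0.0929), without the mouse as a block (0.0723) or in PBS mice alone (0.22). The Ighv1-58 call was kept in 4 of 12 alternative settings and in 5 of 11 fits with 1 mouse left out.

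Among the segments with most members that were not called, Ighv3-6 was the largest. With 656 singletons it made up 11.5% ± 6.27 of extravascular and 16.0% ± 4.24 of intravascular ones (SD, n = 11; log2 fold -0.71 ± 0.27, adjusted p = 0.0519). It passed without short V stretches (adjusted p = 0.0473) and with the 1 nt neighbours kept (log2 fold -1.08, adjusted p = 0.0372). Ighv5-17, Ighv5-6 and Ighv5-4 had log2 folds of 0.64, 0.68 and 0.73 and adjusted p values of 0.138, 0.188 and 0.194. Nearly all members named Ighv5-6 (167 of 167) and Ighv5-4 (164 of 165) had several V names in the annotation, of which the first was taken. Ighv13-2 had a log2 fold of -0.89 (adjusted p = 0.0987), and -1.34 (adjusted p = 0.0372) with the neighbours kept.

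The calls rest on all mice and on the removal of neighbours. With the neighbours kept, 6 segments were called, of which 3 were among the 10, Ighv1-53, Ighv1-58 and Ighv15-2. The other called V segments were not called then. Ighv3-1 had a log2 fold of -0.84 (adjusted p = 0.171), Ighv1-64 one of 1.45 and Ighv1-72 one of 1.17 (adjusted p = 0.0504 for both), and Ighv1-55 one of 1.07 (adjusted p = 0.109). Without PBS mouse 4, PBS mouse 1 or UPEC mouse 1, 5, 6 and 6 segments were called. The 6 PBS mice alone gave 8 calls and the 5 UPEC mice alone 0. The log2 fold of Ighv3-1 was -2.12 in the former and -2.03 in the latter, and that of Ighv1-64 1.99 and 1.74. Centring each library on its median segment gave 10 calls, 9 of them shared.

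On the GRCm38 annotation all of these V segments lie on the minus strand of chromosome 12. The 4 that were higher outside the vessels lie at chr12:115158403-115158835 (Ighv1-53), chr12:115208095-115208591 (Ighv1-55), chr12:115507545-115508031 (Ighv1-64) and chr12:115757984-115758461 (Ighv1-72). The lower ones Ighv3-1, Ighv3-8 and Ighv15-2, at chr12:113964388-113964818, chr12:114322327-114322801 and chr12:114564578-114565012, lie nearer to the D segments, of which Ighd1-1 is at chr12:113482170-113482192. The lower Ighv1-58, at chr12:115312166-115312599, lies among the higher ones.

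**Figure D3:**
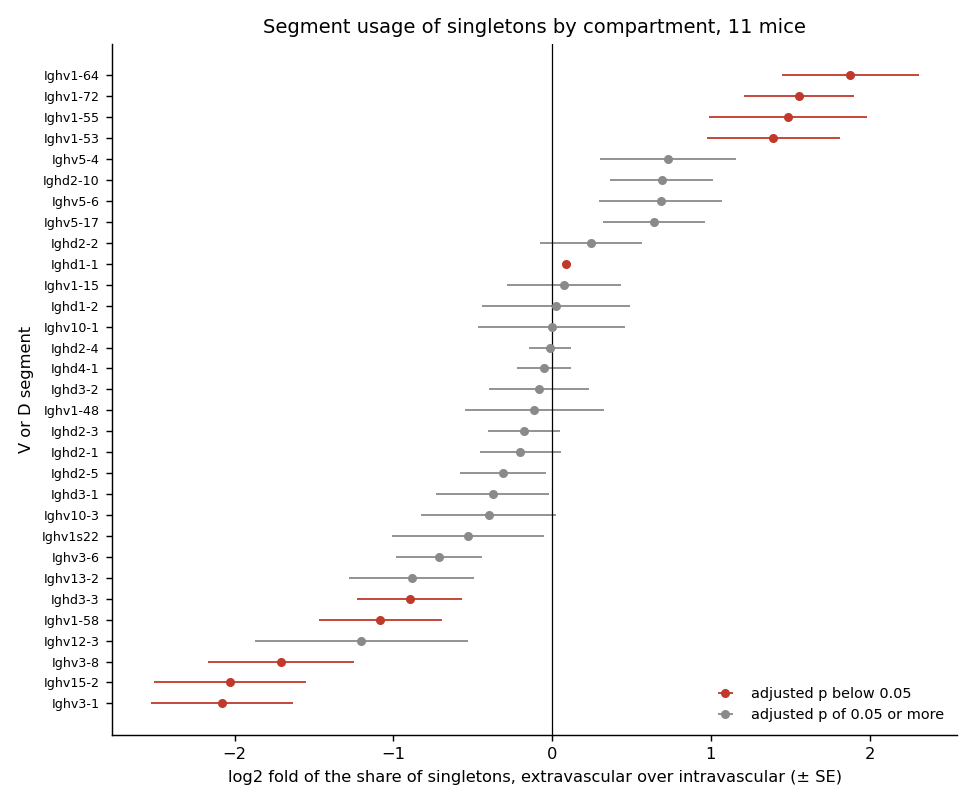
Log2 fold of each segment's share of singletons, extravascular over intravascular (horizontal axis, with SE bars), for the 31 V and D segments tested (vertical axis) over 11 mice. The 10 segments past the threshold are in red, from Ighv3-1 at -2.08 to Ighv1-64 at 1.88.

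Of the segments called, 8 were among the 19 V and 2 among the 12 D segments tested. Ighd1-1, the most used D segment here, was found in 1554 of the 4334 singletons with a D. It made up 37.6% ± 4.02 of extravascular and 35.2% ± 2.77 of intravascular ones (SD, n = 11), a log2 fold of 0.09 ± 0.03 (limma adjusted p = 0.0214), higher in 8 of 11 mice. Without short V stretches its adjusted p was 0.228 and without the mouse as a block 0.22, and with median centring its log2 fold was 0.31 (adjusted p = 0.0382). The Ighd1 family as a whole was 3.27 points higher in the extravascular compartment, in 9 of 11 mice (adjusted exact signed-rank p = 0.0472). It lost the call without short V stretches (3.30 points, adjusted p = 0.187) and when any mouse but PBS mouse 6 was left out (2.96 to 3.63 points, adjusted p up to 0.0944). With the 1 nt neighbours kept it was 0.476 points, and Ighd1-1 turned to a log2 fold of -0.043.

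The rarer Ighd3-3, with 113 singletons, fell by 0.90 ± 0.33 on the log2 scale (adjusted p = 0.049), lower in 9 of 11 mice. This call was lost without short V stretches (adjusted p = 0.0929), with the 1 nt neighbours kept (0.107), with median centring (0.155) and without the mouse as a block (0.0723). Ighd2-4, Ighd2-3, Ighd4-1 and Ighd2-5, with 451, 417, 397 and 251 singletons, were not called.

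For the 4 J genes no compartment difference passed. Ighj2 was the most frequent, at 32.7% ± 4.23 of extravascular and 31.4% ± 2.81 of intravascular singletons (SD, n = 11). Ighj4 followed with 26.3% and 26.0%, Ighj3 with 20.7% and 21.5%, and Ighj1 with 20.3% and 21.1%. The largest of these differences was 1.35 points, for Ighj2 (SD of the differences 4.15, adjusted exact signed-rank p = 0.793).

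N additions did not separate the compartments. Singletons averaged 5.46 ± 0.449 N nucleotides outside and 5.73 ± 0.299 inside the vessels (SD, n = 11), lower outside in 7 of 11 mice (difference -0.268, SD 0.513, adjusted exact signed-rank p = 0.422). The quartiles were 3 and 8 N nucleotides in either compartment, and 112 extravascular and 154 intravascular ones had none. Singletons of at least 3 reads differed by -0.504, with an adjusted p of 0.0496. With the 1 nt neighbours kept the difference was 0.018. Without short V stretches it was -0.202 (adjusted p = 0.223).

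CDR3 length was 12.0 ± 0.245 residues in extravascular and 12.1 ± 0.236 in intravascular singletons (SD, n = 11; adjusted exact signed-rank p = 0.837). The quartiles were 10 and 14 residues outside and 11 and 14 inside the vessels. D regions, P nucleotides, hydropathy, net charge and tyrosine content of the CDR3 did not pass either. Differences in these junction measures were not detectable with this number of mice.

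Most singletons carried germline V sequence. Of the members with an aligned V of at least 100 nt, 93.4% ± 3.04 in extravascular and 96.9% ± 1.68 in intravascular libraries (SD, n = 11) had no mismatch. The extravascular share was 3.50 points lower, lower in 9 of 11 mice (adjusted exact signed-rank p = 0.0472). As for Ighv3, leaving out any mouse but PBS mouse 6 ended the call (-2.83 points at the least, adjusted p up to 0.0944), and keeping the 1 nt neighbours gave -1.85 points (adjusted p = 0.187). Weighting each clonotype to the depth of the smallest library moved it to -10.3 points (adjusted p = 0.0708).

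The mismatches went with the isotype field. Each singleton row held reads of a single isotype, while 9 of the 17178 rows of the tables held 2. Of the 4449, 3387 (76.1%) were Ighm and 985 (22.1%) Ighd, 32 were Igha and 45 together were Ighe or Ighg. Germline V sequence was found in 96.3% (Wilson interval 95.5% to 96.9%) of Ighm and 98.6% (97.6% to 99.1%) of Ighd singletons with a value. It was found in 12 of 32 Igha singletons (37.5%, 22.9% to 54.7%) and in 21 of 44 Ighe or Ighg singletons (47.7%, 33.8% to 62.1%). The switched singletons were spread over 17 libraries for Igha and 18 for Ighe and Ighg, with 15 and 26 of them extravascular. For comparison, 1651 of all 4449 singletons were extravascular. All 7 Ighg1 singletons, from 5 libraries, used Ighv1, against 33.0% of all singletons, and 6 of them were extravascular. The other Ighg genes were split more evenly, with 3 extravascular and 3 intravascular singletons for Ighg2a, 8 and 6 for Ighg2b and 7 and 8 for Ighg3. Their Ighv1 shares were 83.3%, 35.7% and 33.3%.

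The Ighd share followed the V family, pooled here over libraries as a description. It was 45.6% (Wilson interval 42.1% to 49.2%) of Ighv5, 41.6% (34.1% to 49.5%) of Ighv13 and 51.9% (42.5% to 61.0%) of Ighv15 singletons, but 12.3% (10.7% to 14.0%) of Ighv3 and 8.24% (5.06% to 13.2%) of Ighv10 ones. Of the 52 Ighv11 singletons none was Ighd (Wilson interval up to 6.88%). Ighv1 singletons were Ighd in 19.9% in all and in 36.0% (32.8% to 39.4%) once the short V stretches were left out.

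The balance of Ighm and Ighd between the compartments differed between PBS and UPEC mice. In PBS mice the Ighm share of singletons was higher outside the vessels in 6 of 6 animals, at 73.6% to 89.9% with a median of 81.2% against 70.4% to 79.8% with a median of 72.2%. In UPEC mice it was lower outside in 5 of 5 animals, at 60.8%, 72.2%, 65.5%, 71.2% and 71.2% against 81.4%, 84.1%, 83.9%, 78.5% and 77.7%. The extravascular libraries of the 2 treatments did not overlap, and the UPEC compartments did not overlap either.

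The mean difference in the Ighm share was 6.42 points ± 7.23 (SD, n = 6) in PBS and -13.0 points ± 6.37 (SD, n = 5) in UPEC mice, a change of -19.4 points. The exact two-sided permutation p of 0.00216 is the smallest that the possible assignments of mice can give (adjusted p = 0.0314). The Ighd share mirrored it, with -6.52 points in PBS and 10.2 points in UPEC mice, a change of 16.7 points with the same p values. These were the 2 of 29 measures (6.9%) called for this change, 1 lower (3.45%) and 1 higher (3.45%) after UPEC. Ighm (76.1%) and Ighd (22.1%) covered nearly all singletons, so the 2 calls are not independent. The adjusted p of 0.0314 needs both shares at the smallest p. Without short V stretches Ighm kept its exact permutation p of 0.00216 while Ighd had 0.00433. The adjusted p was then 0.0628 for both.

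**Figure D4:**
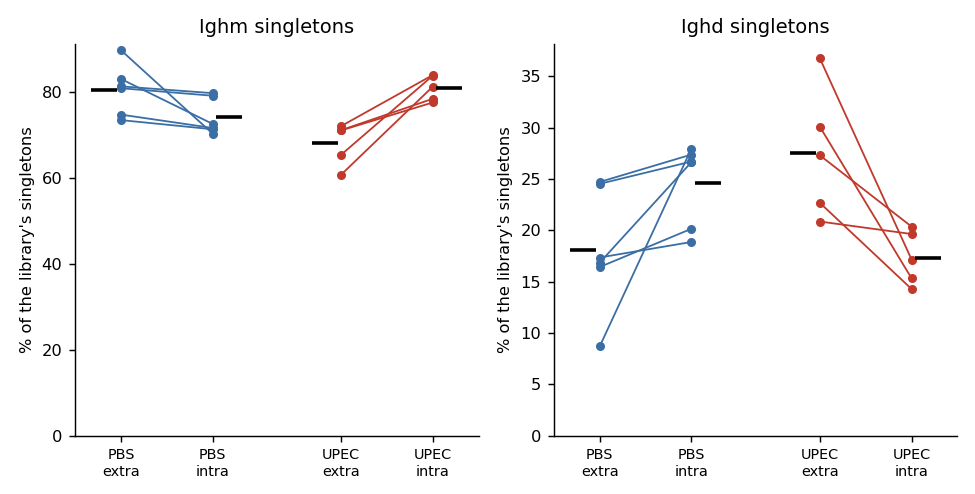
Share of each library's singletons (vertical axis, %) that were Ighm or Ighd, by treatment and compartment (horizontal axis). Points are libraries, lines join the 2 libraries of a mouse and black bars are group means, for Ighm 80.6% and 74.2% in PBS and 68.2% and 81.1% in UPEC mice.

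The short V stretches, nearly all Ighm, moved in the same direction as this change. The size of the change was similar under most choices while its adjusted p was not. It was -19.8 points without short V stretches (adjusted p = 0.0628), -18.1 at the depth of the smallest library (adjusted p = 0.0942) and between -21.0 and -16.8 when any 1 mouse was left out, where the fewer assignments allow no smaller adjusted p for a pair of measures than those obtained (0.069 to 0.115). V usage moved with the compartments as well, so the change was also taken within V families. It was -21.4 points within Ighv1, -9.38 within Ighv3 and -17.8 within Ighv5, with adjusted exact p values of 0.879, 0.33 and 0.33, and -24.0 in singletons outside Ighv3 (adjusted p = 0.0314). The opposite directions did not hold within each family. Within Ighv5 the extravascular Ighm share was higher in 6 of 6 PBS and in 4 of 5 UPEC mice, and within Ighv1 in 2 of 6 PBS and 1 of 5 UPEC mice. In clonotypes of 2 or more rows the change was -5.79 points (exact p = 0.255), and over all rows, singletons included, it was -14.0 points for Ighm (exact p = 0.0303) and 11.3 points for Ighd (exact p = 0.0411), both unadjusted. Over all rows the Ighm difference was 11.6 points in PBS and -2.40 points in UPEC mice, where the share was higher outside in 2 of 5 animals. The Ighd difference was -12.8 and -1.44 points over all rows, and -3.91 and -1.71 points in clonotypes of 2 or more rows. For Ighd these had the same direction in both treatments. Whether singletons and larger clonotypes differ in the change between treatments was not tested.

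Compared directly between treatments, none of the 29 measures passed in either compartment (0%). By unadjusted exact Mann-Whitney p values under the threshold there were 2 in the extravascular and 1 in the intravascular libraries. The Ighm share of extravascular singletons was 68.2% ± 4.88 (SD, n = 5) after UPEC and 80.6% ± 5.93 (SD, n = 6) after PBS, with the smallest exact p that this design can give, 0.00433 (adjusted p = 0.126). The other extravascular one was Ighj3, at 22.5% against 19.3% (exact p = 0.0303). In the intravascular libraries the Ighd share was 17.4% ± 2.64 (SD, n = 5) after UPEC and 24.6% ± 4.01 (SD, n = 6) after PBS (exact p = 0.0303, adjusted p = 0.753).

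The segment tests gave the same count. With limma, 0 of 28 segments in the extravascular and 0 of 32 in the intravascular libraries passed between UPEC and PBS (0% in each), and 0 had an unadjusted p under the threshold. N nucleotides averaged 5.46 in extravascular singletons of both treatments, and the Ighv3 share was 21.1% ± 10.5 (SD, n = 5) against 15.9% ± 3.95 (SD, n = 6).

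Against the clonotypes of 2 or more rows in the same libraries, singletons had more N nucleotides in every mouse and both compartments. The means were 5.46 ± 0.449 against 4.39 ± 0.855 outside and 5.73 ± 0.299 against 4.75 ± 0.307 inside the vessels (SD, n = 11), with adjusted exact signed-rank p values of 0.00273 and 0.00391. Without short V stretches the differences were 0.765 and 0.61 N nucleotides (adjusted p = 0.00608 and 0.0103). Junctions without N were 7.93% of extravascular singletons and 16.8% of larger clonotypes, lower in 11 of 11 mice (adjusted p = 0.00273). Inside the vessels they were 5.66% and 9.41%, lower in 6 of 11 mice, which did not pass (adjusted p = 0.258). D regions were longer in singletons by 1.07 nt outside (9 of 11 mice) and 0.77 nt inside (11 of 11 mice), and by 0.692 nt (adjusted p = 0.084) and 0.381 nt (adjusted p = 0.0433) without short V stretches. In all, 14 of 28 measures (50%) passed in the extravascular and 13 of 28 (46.4%) in the intravascular compartment. These counts include 4 isotype and mismatch measures in each compartment that are tied to the number of rows, and 10 and 9 of the 22 other measures passed.

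V usage also differed between singletons and larger clonotypes. Ighv1 made up 44.7% ± 10.2 of extravascular singletons against 15.2% ± 6.79 of larger clonotypes, and 27.7% ± 7.54 against 6.68% ± 6.60 inside the vessels, higher in 11 of 11 mice in each. Without short V stretches these differences of 29.5 and 21.0 points were 23.5 and 10.6 points. Ighv3 went the other way, at 18.3% ± 7.70 against 42.2% ± 15.7 and 42.2% ± 12.3 against 76.8% ± 8.55 (SD, n = 11). Ighv11 and Ighv12 together, the families typical of B-1a cells, were 3.74% of extravascular singletons and 18.2% of larger clonotypes, lower in 11 of 11 mice, and 3.32% against 9.45% inside, lower in 10 of 11. The adjusted exact signed-rank p values were 0.00273 for each extravascular difference, and 0.00391, 0.00391 and 0.0137 for the intravascular ones.

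The extravascular values depend on the removal of neighbours. With these 1-row clonotypes kept, 5 measures passed outside the vessels, Ighv3 differed by -10.0 points (adjusted p = 0.188) and Ighv11 with Ighv12 by -2.84 points (adjusted p = 0.48), while the N nucleotides kept their call. Among singletons of at least 3 reads the intravascular difference in Ighv11 with Ighv12 was -4.61 points (adjusted p = 0.118). CDR3 was longer in singletons by 0.277 residues outside and 0.345 inside the vessels (adjusted p = 0.0488 and 0.0137), but by -0.0497 and -0.00713 without short V stretches, which made up 0.883% to 5.25% of larger clonotypes on average per group.

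Other V, D, J, P and charge values were called in 1 compartment each. Ighj1 was 20.3% of extravascular singletons against 29.9% of larger clonotypes (adjusted p = 0.0228), and CDR3 net charge was -0.324 against -0.618 there (adjusted p = 0.00273). P nucleotides numbered 0.771 against 0.492 in intravascular clonotypes (adjusted p = 0.00391). Whether these differences differ between compartments was not tested.

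Germline V sequence and isotype are tied to the number of rows, since the rows of a clonotype differ in sequence or isotype, and are given as descriptions. Singletons without a V mismatch were 93.4% outside and 96.9% inside the vessels. Averaged over its rows, a larger clonotype was without mismatch in 51.1% and 72.0% of cases. The Ighd share was 22.4% of extravascular singletons against 10.5% of larger clonotypes, and 21.3% against 13.4% inside.

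**Figure D5:**
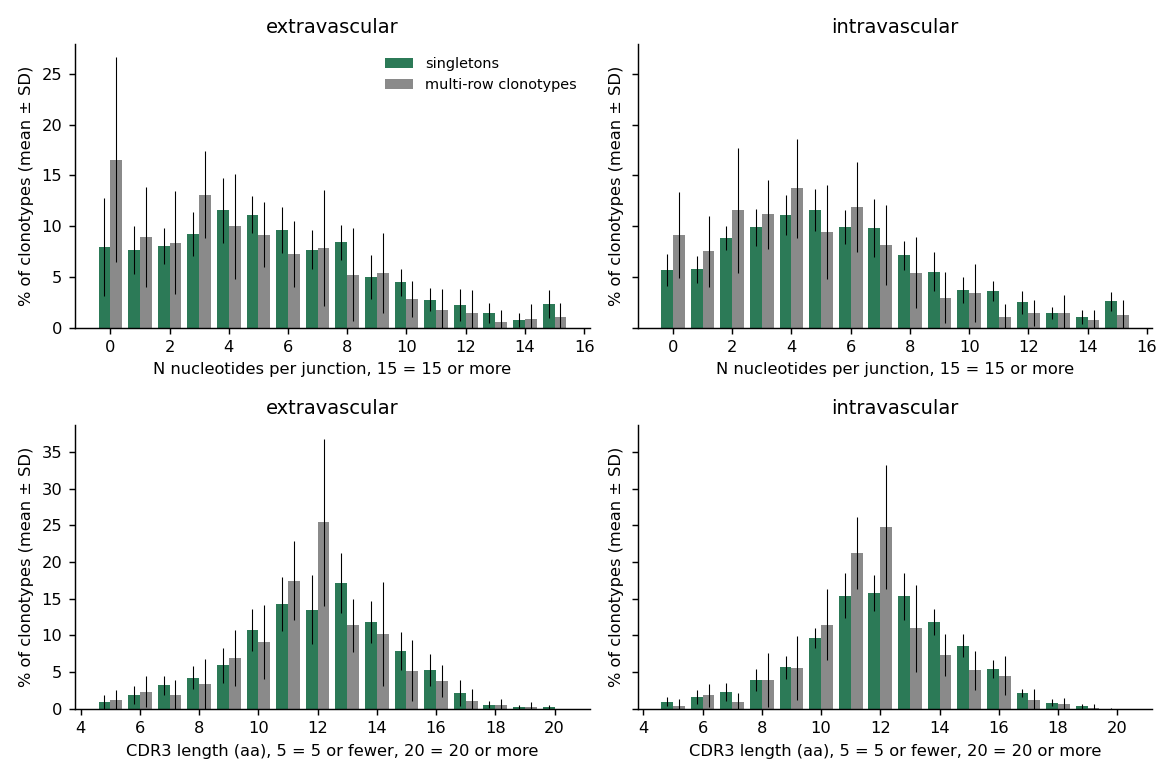
Distribution of N nucleotides per junction and of CDR3 length in residues (horizontal axes) as mean shares of clonotypes (vertical axis, %, with SD over 11 libraries) for singletons and multi-row clonotypes in each compartment. Junctions without N made up 7.93% of extravascular singletons.

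Few singletons were seen in any other library. Of the 4449, 4350 had their rearrangement in 1 library only, 97.3% of extravascular and 98.1% of intravascular ones. In the other compartment of the same mouse 63 were found, 41 of them again as 1 row, and 44 of the 63 were in no other mouse. The others had more rows there, up to 2 for extravascular and up to 133 for intravascular singletons, so a singleton of 1 compartment can be a large clonotype of the other. For extravascular singletons the share found in the own mouse averaged 1.05% ± 2.28, against 0.151% ± 0.160 for another mouse, and was above it in 4 of 11 mice. For intravascular singletons these means were 1.24% ± 1.83 and 0.417% ± 0.363, with 8 of 11 mice above (SD, n = 11). In other mice 55 were found. Of these 55, 28 used Ighv11-2 and 9 Ighv12-3, and 34 had no N nucleotide, like the 4 shared junctions printed above.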

How the data were processed

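Heavy chain (Igh) transcripts of sorted kidney B cells were sequenced in 22 libraries. The authors filtered the reads with QUASR 6.X, merged pairs, required a consensus of over 80% between reads of one barcode, assigned the constant region against IMGT v3.1.15, matched V and J genes with BLAST v2.7.1, kept sequences of more than 1 read, and took their annotation from IMGT/V-QUEST v3.4.15. The deposited tables, per the file headers, hold sequences, segment names and positions, and read counts per isotype inside each identifier, none of them normalized. The identifiers break off after the first isotype name, Igha. The other names were assigned in alphabetical order, on which every Ighm and Ighd value rests.

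A clonotype was a junction with its V and J gene (first name, allele dropped). Members had exactly 1 row in their library, and those 1 nt from a junction of equal length with more rows were removed. N and P nucleotides were taken from the annotated fields, N over members with a D segment and P over all members. V mismatches were counted against GENCODE vM21 (GRCm38) where at least 100 V nucleotides aligned with at most 15% mismatches, which gave a value for 84.0% of the members. Intervals for shares of 1 library or of pooled singletons are 95% Wilson intervals, which take members as independent and cover counting error only. Their half-widths for 1 library ran from 0.891 to 11.6 percentage points.

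The labels pair the 2 libraries of a mouse. Compartments were compared by exact two-sided signed-rank tests over 11 mice, treatments by exact two-sided Mann-Whitney tests, and the change of the compartment difference by exact two-sided permutation over all assignments of mice, each with Benjamini-Hochberg adjustment over 29 measures. V and D segments with a mean of at least 3 members a library were tested with limma 3.58.1 (R 4.3.3) on log2 shares with a prior of 0.5 clonotypes scaled to the library total, the mouse as a block, and adjustment over both kinds of segment together. The segment test was checked on simulated tallies. Python 3.11.15, pandas 2.3.3 and scipy 1.17.1 did the rest. The threshold was an adjusted p of 0.05.

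Named V segments were those past the threshold, the 10 with most members, Ighv11-2 and Ighv12-3. Named D segments were those past the threshold and the 5 with most members. The members, lists and tests were chosen with earlier results of these data known. Alternatives concerned the removal of neighbours, the clonotype definition, depth, minimum reads, prior, filter, centring, pairing and each mouse left out. Those on short V stretches, ambiguous V names, distinct V-D-J sequences and single V families, and all of those for the change of the compartment difference, were chosen after seeing the data.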

Additional observations from a re-analysis of the deposited data

Results flagged for a closer look

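A library far from the others of its group was looked for in 112 groups of 5 or 6 libraries, and 12 were found; chance alone gives about 1 in 20 groups. The first PBS extravascular library, which has the fewest singletons (69), accounted for 4 of them. Its Ighv5 share was 10.1%, its Ighv11 and Ighv12 share 11.6%, its CDR3 tyrosine content 22.6% and its median number of reads 2. The second PBS intravascular library stood apart in 3 measures, with a mean D region of 10.1 nt, an Ighv1 share of 12.1% and a CDR3 tyrosine content of 18.7%.

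The other 5 were single values. The Ighd3 share of the fourth UPEC extravascular library was 12.8%, and 88.6% of the singletons of the fifth had no V mismatch. The Ighv2 share of the fourth UPEC intravascular library was 1.09%. The Ighv14 share was 1.98% in the fourth PBS and 1.79% in the fifth UPEC intravascular library.

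The compartment difference went in opposite directions in all mice of the 2 treatments for the Ighm and Ighd shares, which mirror each other. The change from PBS to UPEC was -19.4 points for the Ighm share and 16.7 points for the Ighd share, each with an exact permutation p of 0.00216, the smallest the design can give. Without short V stretches the Ighm share was higher outside in 5 of 6 PBS mice, and likewise at the depth of the smallest library. It stayed lower outside in 5 of 5 UPEC mice in both settings. At that depth the Ighd share was higher outside in 4 of 5 UPEC mice.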

How the results depend on the processing

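The count of 3 compartment measures fell to 0 when the 1 nt neighbours were kept, when junctions carried by a second clonotype were removed, with clonotypes defined by the junction alone, at the depth of the smallest library, with 1 distinct V-D-J sequence in place of 1 row, and in PBS or UPEC mice alone, where the smallest exact p values are 0.0312 and 0.0625. It ran from 0 to 3 when 1 mouse was left out. The mean N difference turned to 0.018 with the neighbours kept, and was -0.504 at a minimum of 3 reads. Without the replicate block, 7 segments were called, and Ighv3 had an adjusted Mann-Whitney p of 0.00247. The 10 segments became 6 with the neighbours kept, 4 after removal of junctions with a second clonotype, 6 at a minimum of 3 reads and 0 in UPEC mice alone, with 5 to 11 when 1 mouse was left out. For Ighd1-1 the log2 fold turned to -0.043 with the neighbours kept.

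The 2 measures called for the change of the compartment difference became 0 at the depth of the smallest library, at a minimum of 3 reads, without short V stretches, without ambiguous V names and when any 1 mouse was left out, where the fewer assignments of mice leave no pair of measures able to pass. The change in the Ighm share was -18.1, -20.2, -19.8 and -19.0 points in the first 4 of these, -21.0 to -16.8 with a mouse left out, and -21.4, -9.38 and -17.8 within Ighv1, Ighv3 and Ighv5. The 14 extravascular measures that separated singletons from larger clonotypes became 5 with the neighbours kept. The CDR3 difference turned to -0.0497 outside and -0.00713 inside the vessels without short V stretches, and to -0.046 outside with clonotypes defined by the junction alone. The count of calls between treatments was 0 under all alternatives run, which says little of the 29 measures, since a single one at the smallest exact p, 0.00433, has an adjusted p of 0.126. The cause of these shifts was not tested. Depth limits the shares of the smallest groups, 69 singletons in 1 library.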
